A study of Mus musculus with 2 samples.

Results

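Across both libraries, 59 of 3032 deposited cell barcodes carried RNA of more than 4000 different genes, and these 59 cells are described here by the cell types whose markers they held. These members were chosen by their number of detected genes: a cell counted when over 4000 of the 31053 genes in the matrix had at least 1 unique molecular identifier (UMI, a tag that counts each captured RNA molecule once), whatever its share of mitochondrial RNA. Of the members, 46 came from the normoxia library of 2223 cells (2.07%, exact 95% interval 1.52 to 2.75) and 13 from the hypoxia library of 809 cells (1.61%, 0.858 to 2.73). They were set against the 2161 normoxia and 796 hypoxia cells that had 200 to 4000 detected genes.

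Both libraries came from lungs of C57/B6 mice aged 2 to 4 months, kept in normoxia or in hypoxia (10% O2) for 3 weeks, with no transgene or other agent given for these samples. The lungs were flushed of blood and digested with enzymes. CD45-coated and then CD326-coated beads were used to remove leukocytes and epithelial cells, and the remaining cells were run on droplet 3' single-cell RNA sequencing. Each condition had 1 library. The study's text names 3 wild-type animals for the hypoxia experiment and its methods male mice for hypoxia exposure, and how many animals went into each library was not given in the sources used here. With 1 library per condition there was no replicate check, intervals cover counting error only, and condition, animal and library cannot be told apart.

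In droplet sequencing, a barcode is meant to stand for 1 cell, but a droplet can also hold a pair of cells (a doublet), which then share a barcode and show the genes of both cell types. Droplets also take up free RNA from broken cells, so a few UMIs of an abundant gene occur in cells that do not express it. In the lung, endothelial cells line the vessels, pericytes wrap the capillaries, fibroblasts build the matrix, type 1 epithelial cells cover the alveolar surface, type 2 epithelial cells make surfactant, and club and ciliated cells line the airways.

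The members were deep as well as rich in genes, which the choice by detected genes used in part. In normoxia they held 12190 to 112728 UMIs each (median 17994.5, against 1862 in cells of 200 to 4000 genes) and 4007 to 8070 genes (median 4454.5). In hypoxia they held 13216 to 28033 UMIs (median 17650, against 1962.5) and 4030 to 5667 genes (median 4527). They made up 13.0% of the 7630683 normoxia UMIs and 8.61% of the 2685345 hypoxia UMIs.

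Just inside the limit, 3 normoxia cells had 4007, 4010 and 4034 genes, and just outside it 3 had 3997, 3946 and 3940. In hypoxia the corresponding cells had 4030, 4057 and 4165 genes inside and 3985, 3958 and 3956 outside. When cells with at least 2000 UMIs were thinned at random to that depth, the median number of genes was 1170 in the 46 normoxia members and 1152 in 1039 of the 2161 comparison cells, and 1238 in the 13 hypoxia members and 1179 in 388 of 796. The other comparison cells (1122 and 408) were too shallow and were left out. The mitochondrial share had a median of 3.84% in normoxia members (0.768% to 9.58%) and 1.42% in hypoxia members (0% to 3.43%), and 12 of 46 and 0 of 13 members lay above 5%. The libraries shared 1 barcode, which was no member.

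**Figure D1:**
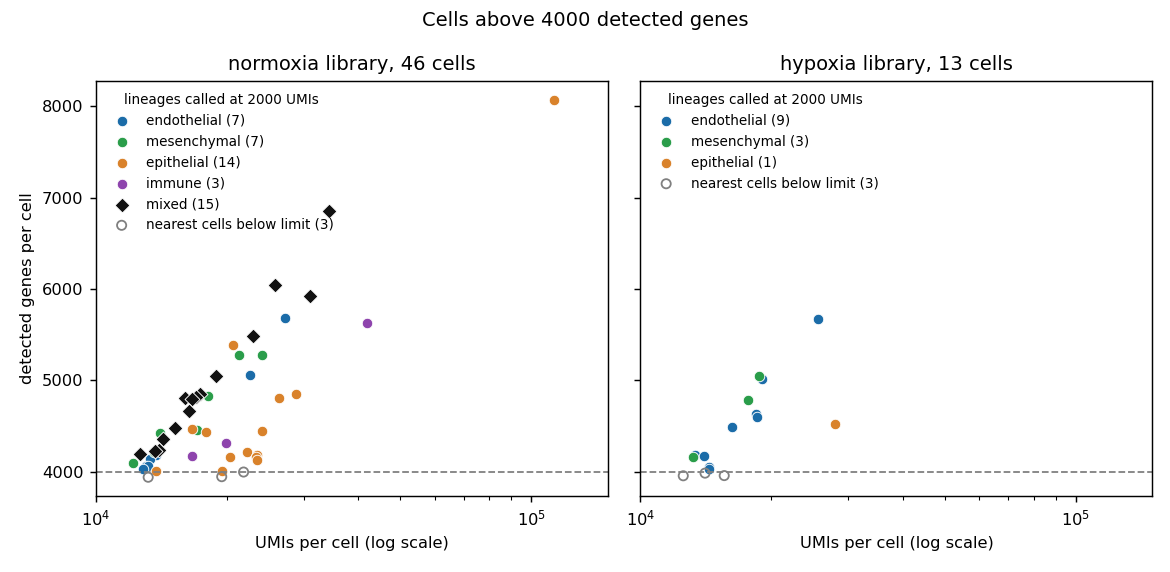
Each point is a member, with its UMIs on a logarithmic x axis and its detected genes on the y axis, in one panel per library, coloured by the lineages whose markers it held. Hollow points are the 3 cells nearest below the dashed limit of 4000 genes. The normoxia points span 12190 to 112728 UMIs and include 15 cells with mixed marker sets, while the 13 hypoxia points hold 9 endothelial, 3 mesenchymal and 1 epithelial cell.

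Cell types were read from 18 lists of 10 marker genes each, after thinning to 2000 UMIs so that depth did not set how many markers were found. A list was called in a cell when at least 3 of its markers had a UMI, and the list with the largest share of its markers found is called the leading list. In normoxia, type 2 epithelial markers led in 11 members, pan-endothelial in 9, fibroblast in 7, type 1 epithelial in 7, pericyte in 6, airway in 3, pan-leukocyte in 2, and macrophage and monocyte in 1. In hypoxia, pan-endothelial markers led in 9 members, fibroblast markers in 3 and type 2 epithelial markers in 1.

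This makeup differed from that of the comparison cells in normoxia, and endothelial-led cells were also a smaller share of the 13 hypoxia members. Pan-endothelial markers led in 19.6% of the normoxia members (exact 95% interval 9.36 to 33.9) and in 788 of the 1039 comparison cells that had at least 2000 UMIs. The type 2, type 1 and airway lists together led in 21 of 46 members and in 45 of those 1039 cells, where no cell was led by airway markers. The interval for pericyte-led cells was 4.94% to 26.3% in members, with 27 such cells of 1039 in the comparison. Cells of over 3000 and up to 4000 genes are called the next-deepest cells here, and of these 59 of 120 in normoxia were led by pan-endothelial, 14 by type 2, 5 by type 1 and 1 by pericyte markers. Among the 388 hypoxia comparison cells of at least 2000 UMIs, 369 were led by pan-endothelial, 11 by fibroblast and 3 by type 2 markers. In the 13 hypoxia members the counts were 9, 3 and 1. Cells under 2000 UMIs, 1122 in normoxia and 408 in hypoxia, were left out of these shares.

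**Figure D2:**
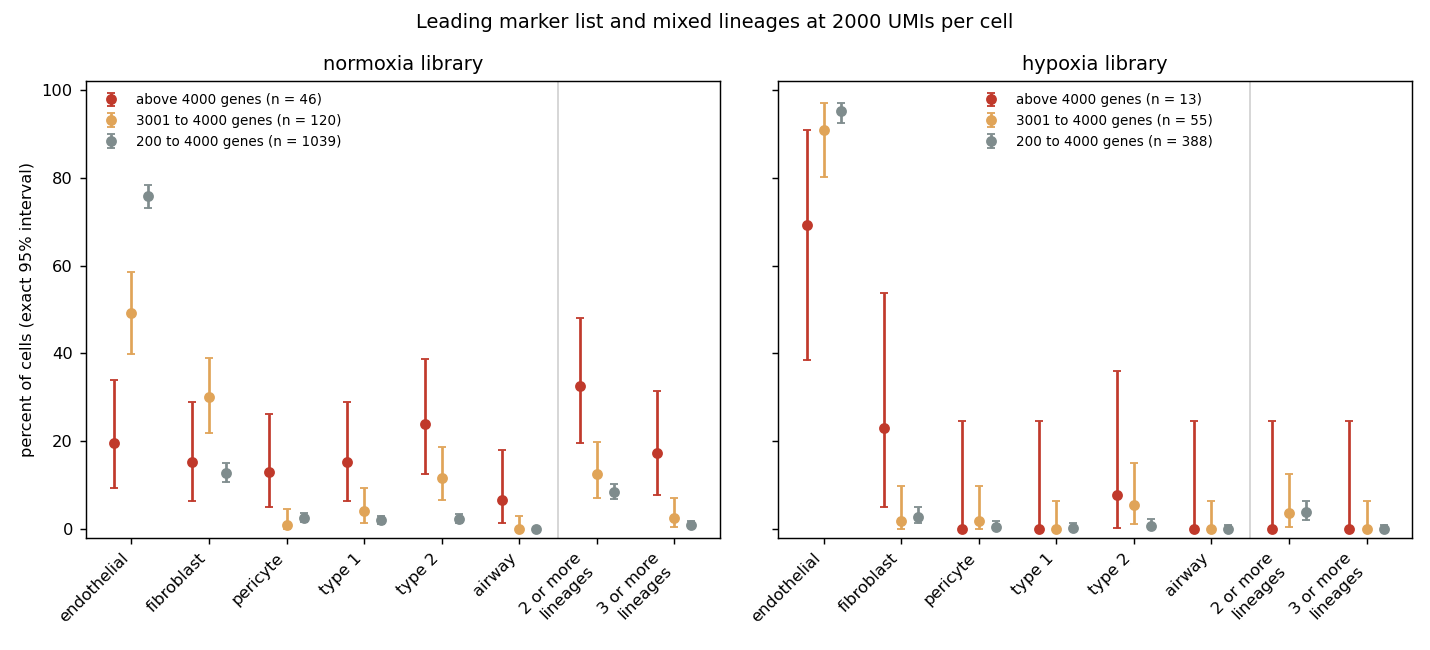
Points give the percentage of cells led by each of 6 marker lists, or holding markers of at least 2 or at least 3 lineages, and vertical lines the exact 95% intervals, for members (46 normoxia, 13 hypoxia), next-deepest cells of over 3000 and up to 4000 genes (120, 55) and cells of 200 to 4000 genes with at least 2000 UMIs (1039, 388). In normoxia, mixed marker sets reach 32.6% of the members, against 12.5% and 8.47% in the other classes.

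Lists were grouped into 7 lineages (endothelial, mesenchymal, epithelial, immune, platelet, erythroid and glial). In normoxia, 14 members held markers of the epithelial lineage alone, 7 of the endothelial, 7 of the mesenchymal and 3 of the immune lineage, and 15 held markers of several lineages. In hypoxia, 9 members were endothelial only, 3 mesenchymal only and 1 epithelial only. No member in either library was called for platelet, erythroid or Schwann cell markers, and no hypoxia member for immune markers. The members are named below by their rank in detected genes within their library, so normoxia cell 1 is the one with 8070 genes.

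**Figure D3:**
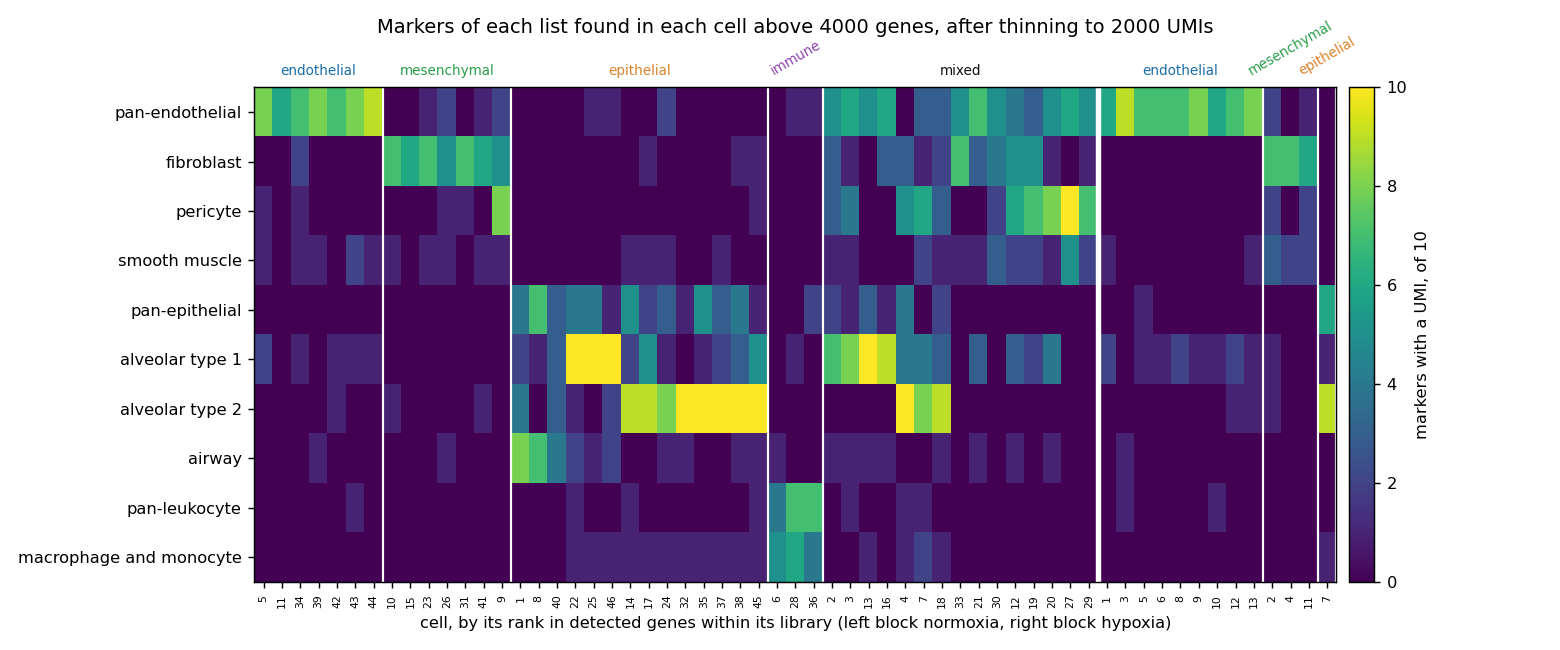
Rows are 10 marker lists and columns are the 59 members (46 normoxia at the left, 13 hypoxia at the right), and the colour gives how many of the 10 markers of a list had a UMI after thinning to 2000 UMIs. Normoxia columns show blocks of type 2, type 1, pericyte, fibroblast and endothelial markers, with 15 columns that hold markers of several lineages, while no hypoxia column does.

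Type 2 epithelial cells were the most frequent kind among normoxia members, although CD326, the protein made from Epcam, was the target of bead depletion. In the 11 members led by type 2 markers, Sftpc, which encodes surfactant protein C (chr14:70520949-70524081, minus strand, GRCm38), had 1046 to 4321 UMIs (median 3422). Sftpb, another surfactant protein gene, had 59 to 253 UMIs (median 178), and Lamp3, a gene of the lamellar bodies that store surfactant, had 12 to 50 (median 33). Epcam itself had UMIs in 10 of the 11 cells, with 0 to 10 UMIs (median 4), and in 22 of all 46 normoxia members. Lyz2, a lysozyme gene of type 2 cells and macrophages, had 167 to 1475 UMIs (median 592) in these 11 cells. All 11 cells were thus high in surfactant genes, and 8 of them also lay above 5% mitochondrial UMIs, with a median of 6.30%. This share was no higher than in other epithelial cells of the library. Epithelial-only cells had medians of 6.07% in members, 6.90% in next-deepest cells and 7.86% in cells of 200 to 4000 genes.

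The lowest Sftpc values among the 11 were in members that also held markers of other lineages. Normoxia cell 18 had 1046 Sftpc UMIs and cell 7 had 1089, while in the 29 normoxia members with any Sftpc UMI the gene reached 4321. In 7 endothelial-only normoxia members, where Sftpc should be absent, 3 had a UMI and none had more than 2, at a median depth of 13296 UMIs. Hypoxia had 1 type 2 member, cell 7, with 28033 UMIs, of which 5593 were Sftpc, 420 Sftpb, 55 Lamp3 and 1992 Lyz2.

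Type 1 epithelial members numbered 7, all in normoxia. Ager, the type 1 marker that encodes a receptor for glycated proteins (chr17:34597862-34600936, plus strand), had 106 to 245 UMIs (median 161). Hopx, a homeodomain gene of these cells, had 100 to 282 UMIs (median 175), and Rtkn2 had 7 to 37 (median 21). Cells 22, 25 and 46 held type 1 markers with no other lineage, and in them the nuclear RNA Malat1 made up 12.8%, 14.8% and 16.8% of all UMIs. The other 4 (cells 2, 3, 13 and 16) also held endothelial markers. Malat1 made up 16.5% of UMIs in cell 13, 2.99% in cell 2 and 1.62% in cell 3. In cell 16 it was not among the 3 most abundant genes. The summed type 1 level of these 4 was 38.4% to 60.5% of that in type 1-led comparison cells of a single lineage. That of cells 22, 25 and 46 was 89.3% to 91.9%.

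Airway epithelium appeared in 3 normoxia members and led in 0 of the 1039 comparison cells of that library with at least 2000 UMIs, which allows a share of up to 0.289%. Without thinning it led in 1 of all 2161. Normoxia cell 1 had 47999 UMIs of Scgb1a1, the secretoglobin of club cells (chr19:9083636-9087958, minus strand), which was 42.6% of its 112728 UMIs. It also held 745 UMIs of Cyp2f2, a club cell cytochrome, together with 20 of Foxj1, the transcription factor of motile cilia (chr11:116330704-116335399, minus strand), 54 of the ciliated cell gene Tmem212, and 39 of Ager. Normoxia cell 40 had 8141 Scgb1a1 UMIs (34.8% of its total) and 132 of Cyp2f2, with 0 of Foxj1 and 0 of Tmem212. Cell 8 had 32 UMIs of Foxj1, 39 of Tmem212 and 103 of Scgb1a1. Cell 1 thus carried secretory and ciliated markers together, and cell 8 held ciliated markers with some Scgb1a1, while cell 40 was secretory. For scale, Scgb1a1 had UMIs in 4 of the 7 endothelial-only and 4 of the 7 mesenchymal-only normoxia members, with at most 3 per cell. Free RNA was not measured here.

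Mixed marker sets were more frequent among normoxia members than among shallower cells, and absent from the hypoxia members at equal depth. After thinning, 15 of 46 normoxia members held markers of at least 2 lineages (32.6%, exact 95% interval 19.5 to 48.0), against 15 of 120 next-deepest cells (12.5%, 7.17 to 19.8) and 88 of 1039 with 200 to 4000 genes (8.47%, 6.85 to 10.3). Markers of at least 3 lineages were found in 8 of 46 members (17.4%, 7.82 to 31.4) and in 10 of 1039 comparison cells (0.963%). In hypoxia the count was 0 of 13 cells, which allows a share of up to 23.1% by a limit of 3 counts (exact upper bound 24.7%), against 15 of 388 comparison cells (3.87%, 2.18 to 6.30). Without thinning, 76.1% of the normoxia and 38.5% of the hypoxia members held markers of several lineages, so the share depended on how many UMIs were read.

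Genes that mark single lineages gave a count of the same kind. It is no separate check, since Cldn5, Pdgfrb and Krt18 among them are in the marker lists and the same thinned UMIs were read. A UMI of Cdh5, Pecam1 or Cldn5 (endothelial junction genes) together with one of Col1a1, Col1a2 or Pdgfrb (collagens and the pericyte receptor for platelet-derived growth factor) was found in 12 of 46 thinned normoxia members (26.1%, 14.3 to 41.1), against 52 of 1039 comparison cells (5.01%, 3.76 to 6.51). Endothelial and epithelial genes (Epcam, Cdh1 or Krt18) met in 5 of 46 members (10.9%) and 11 of 1039 comparison cells (1.06%). Mesenchymal and epithelial genes met in 4 members (8.70%) and 2 comparison cells, epithelial and leukocyte genes in 1 member, and endothelial and leukocyte genes in 0 members and 14 comparison cells (1.35%). None of these pairs occurred in a thinned hypoxia member.

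Of the 15 mixed cells, 8 held endothelial, mesenchymal and epithelial markers, 5 endothelial and mesenchymal, 1 endothelial and epithelial, and 1 mesenchymal and epithelial markers. Their median depth was 16662 UMIs, below the 19848 of the 31 normoxia members with 1 lineage, while their median number of genes was higher (4807 against 4316). Cdh5, the cadherin of endothelial junctions (chr8:104101625-104144511, plus strand), had UMIs in all 15 (1 to 28, median 13). Pdgfrb had UMIs in 12 of 15 (0 to 69, median 29) and Ager in 11 of 15 (0 to 210, median 19). For description, since cells were called mixed or single by such markers, the highest foreign counts in single-lineage normoxia members follow. Cdh5 reached 3 UMIs in mesenchymal-only and 12 in epithelial-only cells, Pdgfrb 2 in endothelial-only and 1 in epithelial-only cells, and Ager 2 in endothelial-only cells, so the Cdh5 counts of mixed and epithelial-only cells overlapped.

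Single cells show how the markers were combined. Normoxia cell 2, with 34319 UMIs, held 210 UMIs of Ager, 179 of Hopx, 13 of Cdh5, 21 of Cldn5, 33 of Pdgfrb and 33 of the pericyte gene Postn. Cell 13 held 161 of Ager and 14 of Cdh5, with 0 of Pdgfrb. Cell 4 held 3414 of Sftpc, 18 of Pdgfrb and 27 of Postn, and only 1 of Cdh5. These were alveolar epithelial profiles with added capillary or pericyte genes. Cell 27 paired 47 UMIs of Pdgfrb and 34 of Postn with 13 of Cdh5 and 15 of Cldn5, and had 0 of Ager. Cell 29 likewise held 48 of Pdgfrb, 28 of Cdh5 and 31 of Cldn5.

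Against reference cells of 1 lineage from the same library, mixed cells held each marker set at part of its level. In cell 18 the summed levels were 38.6% of the reference for pan-endothelial, 12.6% for fibroblast, 18.4% for pericyte and 40.2% for type 2 markers. In cell 27 they were 40.8% for pan-endothelial and 58.5% for pericyte markers, and in cell 33 they were 41.4% for pan-endothelial and 76.2% for fibroblast markers. Cell 21 was the most uneven, at 89.8% for pan-endothelial and 10.0% for fibroblast markers.

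**Figure D4:**
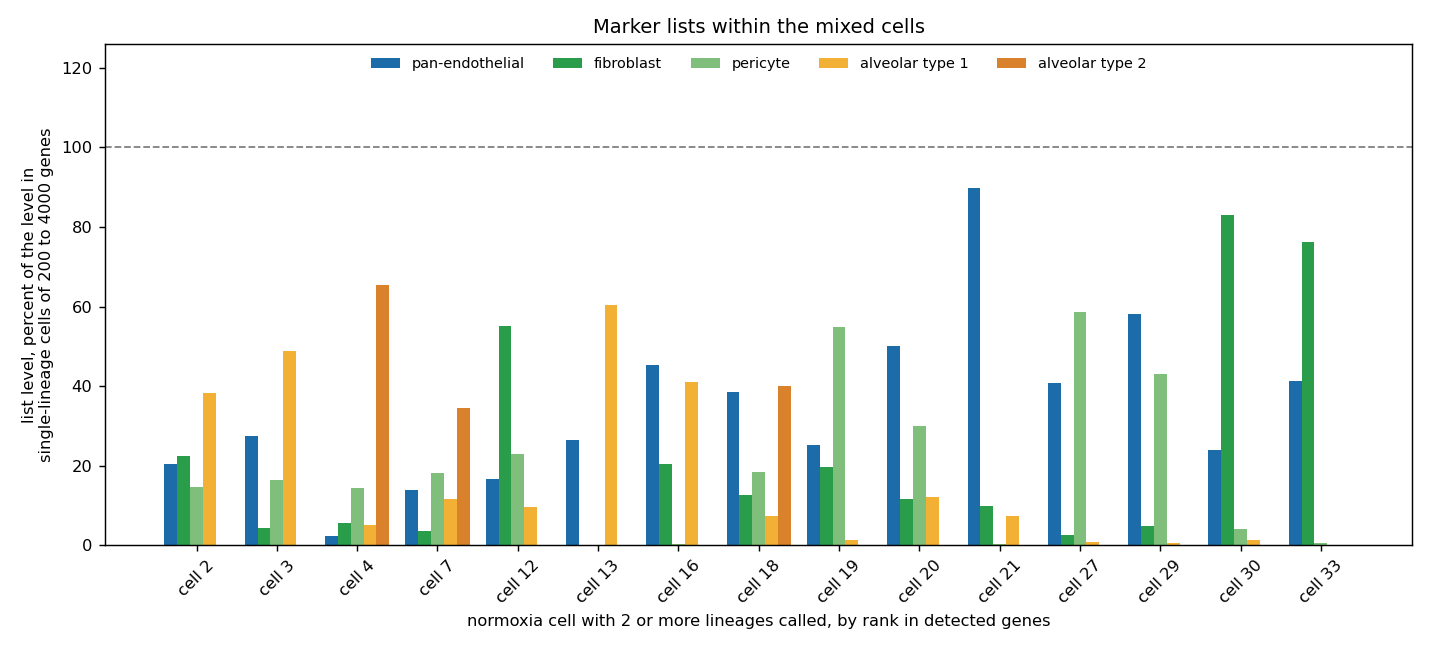
Grouped bars give, for each of the 15 normoxia members with mixed marker sets, the summed level of 5 marker lists in CPM as a percentage of that in single-lineage comparison cells led by the same list (dashed line, 100). Most cells show several bars between about 10 and 60, as cell 18 does with 38.6 for pan-endothelial and 40.2 for type 2 markers, and the tallest is the pan-endothelial bar of cell 21 at 89.8.

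Scrublet, a doublet caller that scores each barcode against simulated pairs, gave few calls. It marked 1 of 2223 normoxia barcodes (0.0450%) and 3 of 809 hypoxia barcodes (0.371%), under 0.5% of each library, so the calls carry little information. None of the normoxia members and 2 hypoxia members, neither of them mixed, were among the calls. The median score was 0.120 in the 15 mixed members, 0.0757 in the other normoxia members and 0.0551 in the comparison cells. No doublets were removed, and whether the mixed barcodes held several cells could not be tested with these calls. Xist and Y-linked genes met in 0 of 46 thinned normoxia members and in 1 of 46 without thinning (1 Xist UMI in cell 32), which bears on mixed origin only if animals of both sexes were pooled.

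Pericyte-led members were all in normoxia, and most held endothelial genes too. In the 6 cells (9, 12, 19, 20, 27 and 29), Pdgfrb had 41 to 69 UMIs (median 47.5), Postn, a matricellular protein gene, 8 to 43 (median 33.5), and Cox4i2, a respiratory chain subunit of pericytes, 16 to 52 (median 25.5). Notch3, a receptor of mural cells, had 5 to 14 UMIs (median 9.5), and Acta2, the smooth muscle actin gene, at most 2. Cdh5 had UMIs in all 6 (1 to 28, median 11) and Cldn5 in 5 of 6 (0 to 31, median 14). Of the 6 cells, 5 had mixed marker sets, and only cell 9 did not, with 1 UMI of Cdh5 and 0 of Cldn5.

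Over all normoxia members together, the pericyte list was higher than in the comparison cells. Levels here are summed UMIs per 1000000 UMIs (CPM), which were not divided by transcript length since 3' ends were counted, and a gene counts as higher or lower when the ratio of members to comparison cells was at least 2 or at most 0.5. Of 10125 normoxia genes with at least 50 UMIs, 19% lay past 2-fold (7.41% higher and 11.6% lower), and the median ratio was 0.896. All 10 pericyte genes were higher, with a median ratio of 2.73 and a summed ratio of 2.60 (2.46 to 2.75). Against the next-deepest cells, where 3.39% of 6658 genes were higher and 5.68% lower, 8 of 8 were higher and the summed ratio was 7.25.

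Epithelial lists were higher and endothelial lists lower in the normoxia members as a whole. All 10 type 1 genes (median ratio 4.97), all 10 type 2 genes (4.42), all 8 airway genes tested (30.1) and all 8 pan-epithelial genes tested (6.62) were higher. Krt18, a keratin of simple epithelia, had a ratio of 7.63, and Cldn7, a tight junction gene, one of 11.4 (8.57 to 15.3). The pan-endothelial list was lower in 9 of 10 genes (median 0.317), as were all 10 general capillary genes (0.307), 5 of 10 aerocyte genes (0.469), 7 of 8 lymphatic genes (0.272) and 6 of 9 arterial genes (0.380), with 1 arterial gene higher. Venous genes were split, with 2 of 9 higher and 3 lower (median 0.676), or 0 and 2 of 8 against the next-deepest cells. Against the next-deepest cells 0 of 10 type 2 genes (summed ratio 1.18 in place of 4.21), 6 of 10 type 1 genes (2.04 in place of 3.79), 4 of 8 pan-epithelial genes (2.01 in place of 6.53) and 8 of 8 airway genes (164.7) were higher, and 4 of 10 pan-endothelial, 0 of 9 general capillary, 1 of 3 lymphatic (summed ratio 0.808 in place of 0.305) and 1 of 7 arterial genes (0.810 in place of 0.395) lower. The aerocyte list moved the other way, with 7 of 10 lower and a summed ratio of 0.354 in place of 0.543. Against all cells of 200 to 4000 genes, the summed airway ratio was 117.6, or 20.9 without cell 1.

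Among single genes in the normoxia members, Scgb1a1 was 142-fold higher (136.5 to 147.7), but cell 1 supplied 85.2% of its UMIs, and without that cell the ratio was 23.7. Hp, the haptoglobin gene (18.4), Cbr2, a carbonyl reductase of airway cells (10.1), Cyp2b10 (11.1) and Sec14l3 (9.19) were also higher, and cell 1 supplied 73.7% of Hp. Chia1, a chitinase gene, was 11.9-fold higher, with 53.6% of its UMIs from cell 35. Igkc, an immunoglobulin light chain gene, was at 0.00246 (7 UMIs in the members against 18923), Igha at 0.00504 and Jchain, the joining chain of secreted antibody, at 0.0117. Cd79a, part of the B cell receptor, had 0 UMIs in the members, at least 8.63-fold lower. The cytokine genes Ccl3 and Ccl4 had 0 UMIs as well, at least 27.2-fold and 37.7-fold lower, and Hhip, a hedgehog-binding protein gene, was at 0.0127.

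Fibroblast and other mesenchymal lists were mixed in normoxia. Of 9 fibroblast genes 2 were lower and none higher, with a median ratio of 0.826, while the summed ratio was above 1 at 1.11 (1.07 to 1.15) and below 1 at 0.599 against the next-deepest cells, where 4 of 8 were lower. Of the 7 smooth muscle genes 3 were lower (median 0.968), and of the 3 mesothelial genes 1 was higher and 1 lower (0.717). With the next-deepest cells as the comparison, 1 of 4 smooth muscle genes and 1 of 2 mesothelial genes were lower, and the summed mesothelial ratio was 0.358 in place of 0.932. The Schwann cell list rested on 1 gene, Mal, which was 3.87-fold higher and is a membrane gene also found in epithelium. Its ratio was 1.23 against the next-deepest cells.

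Endothelial-only members were the largest class in hypoxia, and all of them were high in genes of aerocytes, the large capillary cells of gas exchange. Car4, the carbonic anhydrase of aerocytes (chr11:84957786-84966044, plus strand), had 22 to 82 UMIs in the 9 cells (median 47). Apln, the ligand apelin (chrX:48025146-48034853, minus strand), had 1 to 23 UMIs (median 10), and Kdr, a receptor for vascular endothelial growth factor, had 25 to 103 (median 45). Kit, a receptor of general capillary cells (chr5:75574916-75656722, plus strand), had 0 to 4 UMIs (median 1) and was found in 6 of the 9. Every one of these 9 cells held Car4, Apln and Kdr, with Cdh5 at 34 to 78 UMIs (median 41).

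The 7 endothelial-only normoxia members were more varied. Car4 ranged from 0 to 40 UMIs (median 15), Apln from 0 to 2 (median 0) and Kit from 0 to 9 (median 4), with Cdh5 at 18 to 66 (median 28). The summed aerocyte level was above the summed general capillary level in cells 34, 42 and 43 and below it in cells 5, 11, 39 and 44. Cell 43 had 13128 CPM of aerocyte genes and 1973 of general capillary genes, while cell 39 had 301 and 15192. Cell 11 stood apart with 221 CPM of aerocyte genes, 4999 of general capillary, 4601 of arterial and 5662 of venous genes.

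**Figure D5:**
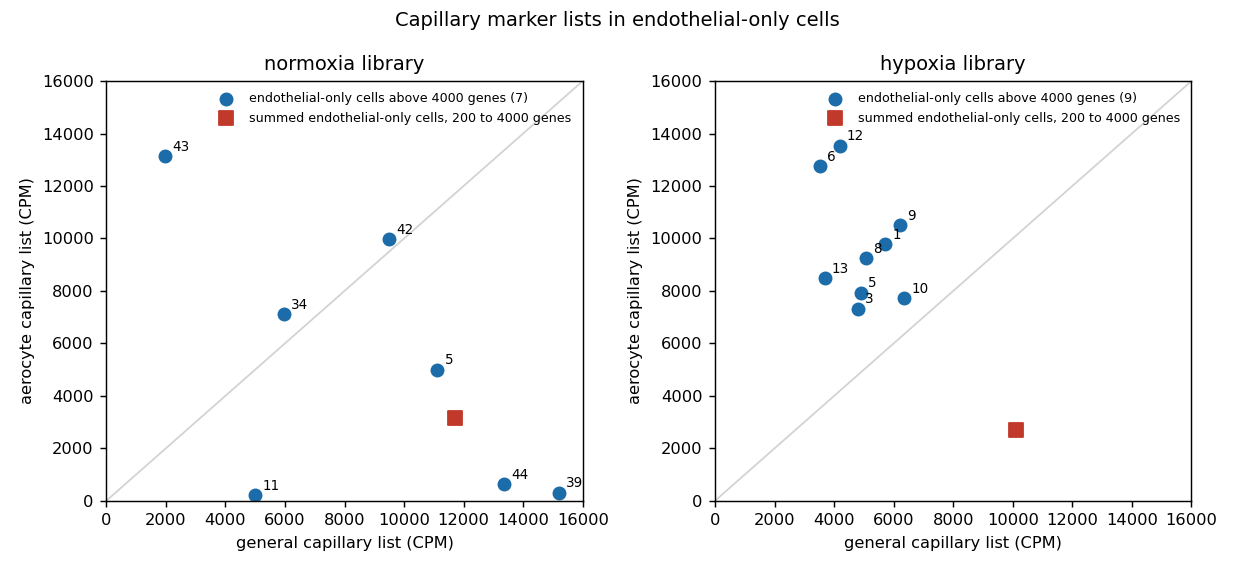
Each point is an endothelial-only member (7 normoxia, 9 hypoxia), with the summed general capillary level on the x axis and the summed aerocyte level on the y axis, both in CPM, and the square gives the summed endothelial-only comparison cells of 200 to 4000 genes. All 9 hypoxia members lie above the diagonal of equal sums, whereas 3 of 7 normoxia members and neither square do.

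In counts of markers after thinning, 8 of the 9 hypoxia cells had more aerocyte than general capillary markers (88.9%, exact 95% interval 51.8 to 99.7), and cell 5 had 8 of each. The share was 18 of 48 in next-deepest endothelial-only hypoxia cells (37.5%, 24.0 to 52.7) and 36 of 355 in those of 200 to 4000 genes (10.1%, 7.20 to 13.8). In normoxia it was 2 of 7 members (28.6%, 3.67 to 71.0), 24 of 50 next-deepest cells and 97 of 738 comparison cells (13.1%). The share of normoxia members was lower at thinning depths of 1000 and 5000 UMIs, as given in the closing section. In hypoxia the share was thus higher in each class with more detected genes, and in normoxia it was highest in the next-deepest cells, with a wide interval for the members.

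In levels, the 9 hypoxia endothelial-only members differed from 355 endothelial-only cells of 200 to 4000 genes in the same library. Of 5801 genes tested, 18.7% lay past 2-fold (5.5% higher and 13.2% lower), and the median ratio was 0.985. All 10 aerocyte genes were higher (median 3.79), with a summed ratio of 3.56 (3.36 to 3.77) that became 1.74 (1.63 to 1.86) against the next-deepest cells, where 1 of 10 was higher (median 1.62) and 1.77% of 2595 genes were higher and 5.51% lower. Among them, Car4 had a ratio of 3.77 (3.37 to 4.21), Apln 4.30 (3.35 to 5.48), Kdr 3.63 (3.25 to 4.04) and Fibin 4.46 (3.35 to 5.87). Igfbp7, a secreted binding protein of insulin-like growth factors, was at 4.38 (4.02 to 4.77), and Hopx, also a type 1 cell marker, at 3.79. Prdm1 and Meox1, both transcription factor genes, were at 6.83 and 5.31, Ptp4a3, a phosphatase gene, at 5.00, and Nptx1 at 8.01. All of these except Nptx1 and Fibin (7 of 9 each) had UMIs in all 9 cells.

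General capillary genes were lower in the same 9 cells, 6 of 9 tested (median 0.383, summed ratio 0.489, or 0.612 against the next-deepest cells, where 3 of 7 were lower). Kit was at 0.199 (0.103 to 0.350), Plvap, a component of capillary diaphragms, at 0.171, Ptprb, an endothelial phosphatase, at 0.339, and Gpihbp1, which carries lipoprotein lipase to the vessel lumen, at 0.381. Arterial genes were lower in 4 of 6 (median 0.356), venous genes in 6 of 7 (0.345) and lymphatic genes in 2 of 4 (0.344), or 3 of 4, 2 of 3 and 1 of 2 against the next-deepest cells. Genes of MHC class II, which present antigen, were lower in 7 of 7 (median 0.404), with Cd74 at 0.388 and H2-Aa at 0.368, and their summed ratio of 0.398 became 0.566 against the next-deepest cells, where 1 of 7 was lower (median 0.589). Vwf, the von Willebrand factor gene, was at 0.243, with 93.8% of its UMIs in hypoxia cell 3. Mgp, at 0.0523, and Crim1, at 0.0580, had 1 and 2 UMIs in the members.

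Genes of glycolysis and known hypoxia targets were higher in 3 of 16 and lower in 1 in the hypoxia endothelial-only members, with a summed ratio of 1.56 (1.45 to 1.68), or with 1 of 13 higher and a summed ratio of 1.48 against the next-deepest cells. Ldha, the lactate dehydrogenase gene, was at 2.22 and Aldoa, an aldolase gene, at 1.53, while Vegfa was at 0.450. Epas1, which encodes HIF2α (chr17:86753700-86833410, plus strand), had a ratio of 1.08 (0.967 to 1.21) in hypoxia and 0.974 (0.871 to 1.09) in normoxia endothelial-only members, so neither differed from 1 beyond counting error. Over all members Epas1 had UMIs in 41 of 46 normoxia cells (0 to 111, median 20) and 13 of 13 hypoxia cells (2 to 54, median 31). Epas1 was at 0.470 over all normoxia members, in which endothelial cells were a smaller share, and whether this makeup set the ratio was not tested. Hif3a had 0 UMIs in the hypoxia members.

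Markers of other lineages in the 9 hypoxia endothelial-only members are given as a description, since these cells were defined by the lack of other called lists. The fibroblast list had 0 UMIs, the pericyte list 3 and the pan-epithelial list 6 in all 9 cells together, and Ptprc and Laptm5 had 0. The pan-leukocyte list had 31 UMIs, 30 of them of Lcp1, an actin-bundling gene, the type 2 list 31, the smooth muscle list 49 and the type 1 list 342, of which Hopx gave 300 (summed ratio 3.39, or 1.73 against the next-deepest cells). Scgb1a1, a club cell gene, had 14 UMIs at a ratio of 0.0819 (0.0447 to 0.138), so the endothelial-only cells of 200 to 4000 genes held more of this RNA in CPM.

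In the 7 normoxia endothelial-only members, set against 738 such cells, the summed ratios of several endothelial lists changed side with the comparison cells. Of 7539 genes 20.8% lay past 2-fold (5.61% higher and 15.2% lower), and the median ratio was 0.967. The aerocyte list was higher in 1 of 10 genes and lower in 1, and its summed ratio of 1.52 (1.39 to 1.65) was below 1, at 0.675 (0.616 to 0.739) against the next-deepest cells. The general capillary list, with 2 of 10 lower, had 0.751 (0.705 to 0.799) in the first comparison and 1.25 (1.16 to 1.34) in the second. Of 9 arterial genes 3 were higher and 1 lower, and of 9 venous genes 1 was higher and 3 lower. MHC class II genes were lower in 2 of 7 (median 0.908), lymphatic genes in 6 of 7 (0.397), S phase genes in 5 of 16 (0.775) and immediate-early genes in 4 of 18 (0.718). Against the next-deepest cells, where 1.73% of 2432 genes were higher and 4.32% lower, 0 lymphatic and 0 MHC class II genes were lower, with 1 of 2 and 1 of 4 higher. There 3 of 9 aerocyte, 0 of 8 general capillary and 1 of 15 immediate-early genes were lower, 1 of 4 arterial genes was higher and 1 lower, and no S phase gene reached the count minimum. The summed lymphatic ratio was 1.80 (1.45 to 2.23) in place of 0.817, that of MHC class II 2.00 (1.72 to 2.32) in place of 1.02, and that of the arterial list 1.54 (1.31 to 1.81) in place of 0.884. The arterial list had 1846 CPM over the 7 cells, and cell 11, at its level given above, lay far higher. That cell held all 27 UMIs of Gja5 and 95% of the 20 of Fbln5, both arterial genes. The arterial ratio without cell 11 was not computed.

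The highest ratios in these normoxia cells came from cell 11 alone. Mgp, the matrix Gla protein gene, was 13.6-fold higher with 93.5% of its UMIs from that cell, and 6.54-fold higher against the next-deepest cells. Fbln2, a fibulin of vessel matrix, was 14.0-fold higher (96.4% from cell 11) and Plat, the tissue plasminogen activator gene, 7.95-fold (97.5%). Gja5, an arterial connexin gene, had 27 UMIs, all in cell 11. Among genes that were lower, Slc6a2 had 0 UMIs (at least 6.29-fold lower), Prss23 was at 0.0787 and Cxcl12, a chemokine of arterial and general capillary cells, at 0.200 (0.120 to 0.312).

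Fibroblast-led members were found in both libraries. In the 7 normoxia cells, Col1a1 had 8 to 84 UMIs (median 23), Col1a2, the other chain of type I collagen (chr6:4504814-4541544, plus strand), 15 to 96 (median 37) and Inmt, a methyltransferase gene of alveolar fibroblasts, 14 to 196 (median 91). In the 3 hypoxia cells, Col1a1 had 14, 25 and 27 UMIs, Col1a2 10, 32 and 36, and Inmt 52, 100 and 170. The ranges of the libraries overlapped for each gene. Of the normoxia cells, cell 33 also held endothelial markers, and the other 6 did not.

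Mesenchymal-only members of normoxia, these 6 fibroblast-led cells and pericyte-led cell 9, were set against 152 comparison cells of the same lineage. Of 3876 genes 13.5% lay past 2-fold (4.26% higher and 9.26% lower), and the median ratio was 1.01. Among the genes with the highest ratios were Ifit3 (39.6, interval 25.8 to 62.9), Ifit1 (32.2), Isg15 (11.3) and Iigp1 (10.1), each known to be induced by interferon. Cell 9 supplied 98.4% of Ifit3, 98.5% of Ifit1, 96.4% of Isg15 and 87.4% of Iigp1, so these ratios describe 1 cell. It also had 178 UMIs of Rsad2, an antiviral gene also induced by interferon.

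Among genes that were lower in the same 7 cells, Hhip was at 0.00849, Igfbp5, a binding protein of insulin-like growth factors, at 0.0721, Thbs1, the thrombospondin gene, at 0.134, and Tagln, a smooth muscle gene, at 0.173. Immediate-early genes, which respond within minutes to stimulation or dissociation, were lower in 8 of 17 and higher in 1 (median 0.507, summed ratio 0.504), with Atf3 at 0.152 and Btg2 at 0.279. The summed ratio was 0.532 against the next-deepest cells. The fibroblast list was lower in 2 of 9 genes (median 0.737), the smooth muscle list in 4 of 5 (0.303) and the pericyte list in 1 of 8 (0.810). The summed pericyte ratio changed side, from 0.756 to 7.22, and the summed fibroblast ratio went from 1.15 to 0.982 (0.932 to 1.035) against the next-deepest cells. Most pericyte UMIs of these 7 cells came from cell 9. It gave 56 of 73 UMIs of Pdgfrb, 52 of 54 of Cox4i2, 49 of 50 of Gucy1a1 and all 38 of Postn. The pericyte ratio without cell 9 was not computed.

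In hypoxia the 3 mesenchymal-only members were set against 12 comparison cells, and 2 of the 388 hypoxia comparison cells were pericyte-led. Of 327 genes tested 31.5% lay past 2-fold (11% higher and 20.5% lower), and the median ratio was 0.805. Fn1, the fibronectin gene, was at 4.20 (2.86 to 6.30), Lox, a collagen crosslinking enzyme gene, at 4.87, Macf1, a cytoskeletal linker gene, at 4.04 and Npnt, the nephronectin gene, at 2.29, each with UMIs in all 3 cells. Dcn, the decorin gene, had 0 UMIs (at least 19.0-fold lower), and Cox4i2, Gucy1a1, Higd1b and Postn, all pericyte genes, were at 0.0385, 0.0535, 0.101 and 0.130. Cytosolic ribosomal protein genes were lower in 37 of 71 (median 0.497).

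Epithelial-only members of normoxia were set against 34 epithelial-only comparison cells, and few genes differed. Of 1891 genes 5.39% lay past 2-fold (3.17% higher and 2.22% lower), and the median ratio was 0.949. Airway genes were higher in 8 of 8 (median 5.55), with 3 airway-led cells among the 14 members and none in the comparison. Cdkn1c, a cell cycle inhibitor gene, was at 17.6, with 79.9% of its UMIs from ciliated-marker cell 8. Sftpc was at 0.522, Scd1, a fatty acid desaturase gene, at 0.381, and Lgals3, a galectin gene, at 0.305, while the type 2 list was lower in 1 of 10 genes (median 0.592) and the type 1 list in 0 of 10 (0.792). Low endothelial counts remained in some of these cells, as cell 24 had 20 UMIs of Cldn5 and 12 of Cdh5, and cell 17 had 12 and 3.

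Immune members were 3 normoxia cells, after bead depletion aimed at CD45, the protein made from Ptprc. Ptprc had UMIs in these 3 members alone, with 6 in cell 6 and 19 each in cells 28 and 36. Laptm5, a lysosomal gene of leukocytes, had 79, 35 and 33 UMIs in the same order. Cells 28 and 36 held alveolar macrophage genes, with 330 and 222 UMIs of Chil3, a chitinase-like gene, and 26 and 16 of Mrc1, the mannose receptor gene. Marco, a scavenger receptor gene, had 7 UMIs in cell 28 and 0 in cell 36.

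Cell 6, with 41917 UMIs, differed from those. It held 973 UMIs of Lyz2 (chr10:117277331-117282321, minus strand), 733 of the protease inhibitor gene Slpi, 712 of the chemokine gene Cxcl2, 463 of Fn1 and 13 of Csf1r, the receptor of macrophage colony-stimulating factor. It also supplied 93.6% of the 328 UMIs of Pf4, a chemokine of platelets and some macrophages. The platelet list differed in direction between its median ratio of 0.189 (5 of 6 genes lower, 1 higher) and its summed ratio of 1.64. The summed ratio was 17.1 (11.6 to 26.1) against the next-deepest cells, with 1 gene tested and higher.

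Over all normoxia members, 6 of 10 pan-leukocyte genes were higher (median 2.29), and 7 of 7 macrophage and monocyte genes (7.01), although Lyz2 gave 8798 of the 9410 UMIs of that list and is shared with type 2 cells. When set against the next-deepest cells, 4 of 6 pan-leukocyte genes and 3 of 6 macrophage and monocyte genes were higher, and the summed macrophage and monocyte ratio was 1.97 in place of 7.17. Of the 4 B cell genes tested 3 were lower (median 0.00123). The T and NK cell list had 0 UMIs in the members and 285 in the comparison cells, the erythroid list 0 and 2, and the neutrophil list 30 and 35, of which Clec4d gave 21, all in cell 6. Globin genes were lower in 2 of 2 (median 0.279), but against the next-deepest cells none reached the count minimum and the summed ratio was 0.848 (0.375 to 1.84) in place of 0.266.

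No member was called as cycling. At least 3 of 10 short mitotic genes (Mki67, Top2a and others) were found after thinning in 0 of 46 normoxia cells, which allows a share of up to 6.52% by the same limit (exact upper bound 7.71%), and in 0 of 13 hypoxia cells. The comparison cells had 2 of 1039 and 1 of 388. Before thinning, cell 6 held 7 of the 10 genes, with 10 UMIs of Mki67 and 11 of Top2a. Of the 20 S phase genes tested in normoxia 1 was lower and none higher (median 0.979), and of the 14 G2 and M phase genes 1 was lower (0.862).

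In all 13 hypoxia members together, 17.6% of 6867 genes lay past 2-fold (6.76% higher and 10.8% lower), and the median ratio was 0.961. The fibroblast list was higher in 7 of 8 genes and lower in 1 (median 6.98), the type 2 list higher in 8 of 10 (5.52) and the aerocyte list higher in 10 of 10 (2.98). Against the next-deepest cells, where 3.67% of 3215 genes were higher and 5.29% lower, 7 of 7 fibroblast genes (median 9.87), 2 of 10 type 2 genes (1.48) and 1 of 10 aerocyte genes (1.35) were higher. The summed ratio there was 13.4 in place of 8.12 for fibroblast, 1.45 in place of 5.30 for type 2 and 1.35 in place of 2.79 for aerocyte genes. The fibroblast result rested on 3 cells and the type 2 result on 1, which supplied 99.8% of Sftpc. Prelp (11.8), Col13a1 (13.1), Ogn (8.45) and Ces1d (9.04), genes of matrix and alveolar fibroblasts, had UMIs in 4 of the 13 cells. Ctgf, a matricellular protein gene, was at 10.8, with 78.7% of its UMIs from hypoxia cell 4.

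Lower in all hypoxia members were 7 of 9 general capillary genes (median 0.313), 7 of 7 MHC class II genes (0.375), 5 of 7 arterial genes (0.291, with 1 higher), 3 of 5 pericyte genes (0.358), 2 of 3 airway genes (0.186), 2 of 4 lymphatic genes (0.281) and 3 of 3 globin genes (0.223). Set against the next-deepest cells, 5 of 7 general capillary genes (0.388) and 4 of 7 MHC class II genes (0.493) were lower, as were 3 of 4 arterial, 2 of 2 pericyte, 1 of 1 airway and 1 of 2 lymphatic genes. The summed pericyte ratio was 0.232 in place of 0.448. No globin gene reached the count minimum there, and the summed globin ratio was 0.809 (0.292 to 1.96) in place of 0.235. Nos3, the endothelial nitric oxide synthase gene, had 0 UMIs in the 13 members (at least 4.24-fold lower), and Kit was at 0.147. The pan-endothelial list was lower in 1 of 10 genes (0.780), the venous list higher in 3 of 8 and lower in 4, the smooth muscle list higher in 3 of 5 (2.09), the type 1 list higher in 2 of 4 (1.98) and the pan-epithelial list higher in 2 of 2 (6.19). When the next-deepest cells were the comparison, 0 of 3 smooth muscle genes, 0 of 4 type 1 genes (summed ratio 1.27 in place of 2.05) and 1 of 2 pan-epithelial genes (1.94 in place of 6.38) were higher, and 2 of 5 venous genes were higher and 2 lower. The neutrophil, B cell, T and NK cell, platelet and erythroid lists had 0 UMIs in the hypoxia members.

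Lists of cell state were read over all members in the same way, and MHC class II genes in hypoxia, lower in 7 of 7, are given above. In normoxia, the immediate-early list was lower in 1 of 19 genes (median 0.773), the heat shock list higher in 1 and lower in 1 of 15 (1.05), the glycolysis and hypoxia target list higher in 1 and lower in 2 of 22 (1.10), and the MHC class II list higher or lower in 0 of 7 (0.792). In hypoxia, immediate-early genes were higher in 4 of 17 (1.45), heat shock genes in 3 of 15 (1.16) and glycolysis and hypoxia target genes in 2 of 17 (1.28). Cytosolic ribosomal protein genes passed 2-fold in 0 of 81 in either library, with medians of 1.05 in normoxia and 0.740 in hypoxia. Translation and chaperonin genes passed it in 0 of 21 in either library (1.07 and 0.952), and nuclear respiratory chain genes were higher in 2 of 83 in normoxia and in 1 of 77 in hypoxia, with 1 lower. Mitochondrially encoded genes were lower in 0 of 13 in normoxia and 1 of 13 in hypoxia (1.16 and 0.693), and nuclear long non-coding RNAs were higher in 2 of 5 in normoxia (1.24) and lower in 1 of 3 in hypoxia (0.730). The summed ratio of these RNAs in normoxia was on the other side of 1, at 0.754 (0.745 to 0.762), and Malat1 gave 35257 of their 36701 UMIs. In normoxia, 0 of 4 of these RNAs passed 2-fold against the next-deepest cells. There 0 of 15 heat shock and 0 of 19 glycolysis and hypoxia target genes were higher in normoxia, and 3 of 15 immediate-early, 2 of 15 heat shock and 1 of 15 glycolysis and hypoxia target genes in hypoxia. The summed mitochondrially encoded ratio in hypoxia was 0.997 in place of 0.706.

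When all cells with at least 200 genes were clustered together, the members fell in 8 of 18 clusters. A cluster of 48 cells led by Sftpc, Sftpa1 and Slc34a2 held 15 members (31.3% of its cells), of which 14 were from normoxia and 3 had mixed marker sets, and these 15 included the 3 airway-led members. A cluster of 114 cells, 112 of them led by fibroblast markers, held 12 members, among them 1 pericyte-led and 1 pan-endothelial-led member, both mixed. A cluster of 144 cells led by Apln, Ednrb and Chst1 held 12 members, 9 of them all the endothelial-only hypoxia members, and none mixed. A cluster led by Rtkn2, Igfbp2 and Ager held 7 members, 4 of them mixed, and one led by Postn and Pdgfrb held 5, of which 4 were mixed. The mixed cells thus did not form a cluster of their own at this resolution.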

How the data were processed

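The deposited files were 1 matrix per library with the authors' UMI counts per gene and cell, made with Cell Ranger (version 6.1.2 in the file headers; the submitters' processing notes name Cell Ranger, Seurat and mm10 without versions). The study's text names a Cell Ranger version other than that of the headers, and STAR as the aligner. Beyond that, the authors' aligner settings and ambient RNA treatment were not given in the sources used here. The study's text gives 4000 detected genes as its upper limit in one place and 6000 in another, and 4000 was used here. The members, lists and tests were chosen with earlier results of these data known.

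Groups were taken from the labels. Genes per cell were counted as genes with at least 1 UMI, of 31053 genes in the file. Each cell with at least 2000 UMIs was thinned without replacement to that depth (random seed 1), a list was called at 3 or more markers with a UMI, a lineage when any of its lists was called, and a cell was mixed when at least 2 of 7 lineages were called. There were 18 lists of 10 cell type markers, 4 of endothelial subtypes, a short mitotic list, and lists of S phase, G2 and M phase, immediate-early, heat shock, glycolysis and hypoxia target, MHC class II, globin, nuclear long non-coding RNA, translation and chaperonin, cytosolic ribosomal, mitochondrially encoded and nuclear respiratory chain genes. Ahsp and Mir99ahg were not matched by symbol, and a gene on 2 rows was read from the row with more UMIs.

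Levels were UMIs summed over cells per 1000000 UMIs. Ratios were taken within a library over genes with at least 50 UMIs in members and comparison cells together. Shares carry exact Clopper-Pearson 95% intervals, ratios exact conditional binomial 95% intervals, and folds against 0 UMIs and limits on shares of 0 were computed from a floor of 3 counts over the group. All cover counting error only. No p-value was computed, since each condition had 1 library and cells are not replicates. Total depth was 7630683 UMIs in normoxia and 2685345 in hypoxia. Named genes were, per library and class, the 10 each way whose interval bound lay farthest from 1 (for higher genes with a UMI in at least 25% of the members), the most abundant list genes, and defining, sex-linked and HIF alpha genes. Slpi, Cxcl2, Chil3, Rsad2 and Cdkn1c in single cells, the levels as a percentage of reference cells, the epithelial-only and mesenchymal-only levels and the list ratios against the next-deepest cells were chosen after seeing the data. Ccl21a, which has near-identical copies, is not described. Some genes that the rule names are not reported here.

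Cells with at least 200 genes were clustered (Leiden, resolution 1) with scanpy 1.11.5, anndata 0.12.19 and igraph 0.11.9, and Scrublet was run per library. Scripts used python 3.11.15, numpy 2.4.6, scipy 1.17.1, pandas 2.3.3 and matplotlib 3.10.9, and were tested on simulated data. Alternatives were other gene limits, thinning depths, marker minimums, weights, scalings, count minimums and comparison cells. No thinning, other depths for the aerocyte marker count and leaving out the deepest member were added after seeing the data. Gene positions are from GENCODE M21 (GRCm38).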

Additional observations from a re-analysis of the deposited data

Results flagged for a closer look

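Summed list ratios (members over cells of 200 to 4000 genes) were compared over all members and over endothelial-only members, for lists with at least 3 genes tested in both libraries. For 11 such pairs, the normoxia and hypoxia libraries lay on opposite sides of 1 with intervals that did not reach it. The differences between libraries were not tested, since each condition had 1 library. Among all members, the pericyte list was at 2.60 in normoxia and 0.448 in hypoxia, the airway list at 117.6 and 0.0488, and the aerocyte list at 0.543 and 2.79. The airway value of normoxia was 20.9 without normoxia cell 1. The immediate-early list was at 0.830 and 1.47, translation and chaperonin genes at 1.11 and 0.843, cytosolic ribosomal protein genes at 1.06 and 0.732, and mitochondrially encoded genes at 1.18 and 0.706. Hypoxia had no pericyte-led and no airway-led member, while normoxia had 6 and 3.

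In endothelial-only members (7 in normoxia, 9 in hypoxia), the immediate-early list was at 0.813 in normoxia and 1.37 in hypoxia, heat shock genes at 0.914 and 1.22, translation and chaperonin genes at 1.11 and 0.931, and cytosolic ribosomal protein genes at 1.28 and 0.811. Against the next-deepest cells (over 3000 and up to 4000 genes), the immediate-early ratio in normoxia endothelial-only members was 1.01 (0.961 to 1.05). Translation and chaperonin genes were at 1.07 (0.985 to 1.16) in normoxia and 0.932 (0.865 to 1.00) in hypoxia, and mitochondrially encoded genes in all hypoxia members at 0.997 (0.955 to 1.04), so these 3 pairs no longer lay on opposite sides of 1 beyond counting error. Cytosolic ribosomal protein genes in hypoxia endothelial-only members were at 0.957.

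Lists with fewer genes tested, and some lists in mesenchymal-only members, also lay on opposite sides. Over all members, the pan-leukocyte list was at 2.74 and 0.640 and the platelet list at 1.64 and 0 (0 UMIs in hypoxia), and in endothelial-only members the fibroblast list was at 1.82 and 0. Against the next-deepest cells these 3 pairs no longer lay on opposite sides beyond counting error, with hypoxia values of 0.884 (0.576 to 1.33) for pan-leukocyte and 0 (0 to 2.78) for platelet genes, and endothelial-only fibroblast values of 1.03 (0.598 to 1.69) and 0 (0 to 3.53). In mesenchymal-only members, which were only 3 cells in hypoxia, cytosolic ribosomal protein genes were at 1.22 and 0.501, mitochondrially encoded genes at 1.21 and 0.511, translation and chaperonin genes at 1.17 and 0.660, and nuclear long non-coding RNAs at 0.512 and 1.36.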

How the results depend on the processing

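No paired analysis was possible because only 1 library stood for normoxia and 1 for hypoxia, so no replicate could be left out either. The recomputed main values were counts and shares, which could only be labelled as stayed or moved. Of these, 83 stayed near the reported one and 46 moved. Of the recomputed ratios of 80 named genes, 386 stayed, 67 moved and 0 reversed. These genes were the 10 each way whose interval bound lay farthest from 1, so this 0 says little about other genes. Summed list ratios were recomputed apart from these. Without the deepest member, the normoxia airway ratio fell from 117.6 to 20.9. The normoxia mesothelial ratio then went from 0.932 to 1.05, and both of its intervals reached 1. Below, only ratios whose first interval excluded 1 were counted as changing side. This leaves out the arterial list in normoxia endothelial-only members (0.884 to 1.54). Against cells of over 3000 and up to 4000 genes, 79 of 155 ratios stayed, 66 moved and 10 changed side of 1. Those 10 became, in normoxia, 0.599 for fibroblast genes over all members, 1.80 for lymphatic, 0.909 for type 1, 0.675 for aerocyte, 1.25 for general capillary and 1.01 (from 0.813) for immediate-early genes in endothelial-only members, 0.982 for fibroblast and 7.22 for pericyte genes in mesenchymal-only members and 2.27 for fibroblast genes in epithelial-only members, and in hypoxia 1.02 for nuclear respiratory chain genes over all members. At limits of more than 3500, 5000 and 6000 genes there were 98, 12 and 3 members in normoxia and 32, 3 and 0 in hypoxia. Scrublet called 0 normoxia and 2 hypoxia members. The mixed share of normoxia members was 76.1% without thinning, and that of hypoxia members 38.5% without thinning and 30.8% at a minimum of 2 markers. In normoxia cells of 200 to 4000 genes it was 4.52% at 1000 UMIs, 24.8% at 5000, 32.0% with at least 2 markers, 4.14% with at least 4 and 14.7% without thinning. In hypoxia cells of 200 to 4000 genes it was 15.9% at 5000 UMIs, 35.3% with at least 2 markers, 1.03% with at least 4, 2.06% without abundant epithelial genes and 12.4% without thinning. The share of endothelial-only members with more aerocyte than general capillary markers was 14.3% in normoxia at 1000 and at 5000 UMIs, and 88.9% and 77.8% in hypoxia. Counts of genes at least 2-fold higher moved with the minimum. They were 1242 in all normoxia members at 20 UMIs and 232 at 200, 823 and 48 in normoxia endothelial-only members, 903 and 100 in all hypoxia members, and 626 and 77 in hypoxia endothelial-only members. Counts of lower genes were 622 in all normoxia members at 200 UMIs, 1912 at 20 and 202 at 200 in normoxia endothelial-only members, 1368 and 207 in all hypoxia members, and 1512 and 153 in hypoxia endothelial-only members. With the mean of per-cell CPM, 1145 genes were higher in normoxia and 706 in hypoxia. Against cells of over 3000 and up to 4000 genes, 226 were higher and 378 lower in all normoxia members, 42 and 105 in normoxia endothelial-only members, 118 and 170 in all hypoxia members, and 46 and 143 in hypoxia endothelial-only members. Apart from the count minimum and the smaller comparison class, which change how many genes are tested, the cause was not tested. Classes held as few as 3 cells, and genes under 50 UMIs in members and comparison cells together entered no count of higher or lower genes.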
